A study of Mus musculus with 2 samples.

Results

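CD8 T cells were examined in kidneys of mice 14 days after ischaemia and reperfusion injury, as cells that carried transcripts of the T-cell receptor complex and of the CD8 co-receptor. Barcodes were kept if they had 500 or more UMIs (unique molecular identifiers, each standing for 1 captured transcript) and 200 or more genes, with no more than 50% of UMIs from mitochondrial genes. A kept cell counted as a CD8 T cell with at least 1 UMI of Cd3d, Cd3e or Cd3g, at least 1 UMI of Cd8a or Cd8b1, no UMI of Cd4, fewer than 5 UMIs of the macrophage genes C1qa, C1qb and C1qc, and no UMI of Slc12a1, a gene of the thick ascending limb of the nephron. This gave 552 CD8 T cells of 19478 kept cells, 68 in the control library and 484 in the haplodeficient library.

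Each group was 1 library of cells from injured mouse kidney. The control mice had the genotype Cre-, and the haplodeficient mice the genotype Cdh5-CreERT2; Phd3f/+, that is 1 floxed copy of Phd3 (Egln3) and a tamoxifen-inducible Cre recombinase. Both groups had 1 renal artery clamped, received 4 tamoxifen injections, were studied on day 14 and carry the label batch 1. The Cre is driven by the promoter of Cdh5, an endothelial gene, so T cells were not the cells in which the allele was meant to be deleted. Whether control mice carried the floxed allele, how many animals went into a library, and the animals' age are not stated in the labels. With 1 library per group, genotype, animal and preparation cannot be told apart. No test between the libraries was possible, and every interval in parentheses is a 95% interval that covers counting error only.

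CD8 T cells recognise peptides on class I major histocompatibility molecules and kill target cells by releasing perforin and granzymes, or act through cytokines such as interferon gamma and tumour necrosis factor. Naive cells circulate through lymphoid organs with genes such as Ccr7 and Lef1, and after activation they become effector cells, circulating memory cells or memory cells that stay in a tissue. Under lasting antigen exposure CD8 T cells can acquire inhibitory receptors such as PD-1 together with the transcription factor TOX, a state called exhaustion. In the injured kidney T cells enter with the inflammatory infiltrate and can persist during repair.

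The genes that chose the cells are given as a description. Cd8b1 was found in 86.8% of control and 83.5% of haplodeficient CD8 T cells, Cd8a in 73.5% and 79.1%, and Cd3e in 79.4% and 77.9%. Both CD8 chains were seen in 41 of 68 and 303 of 484 cells, Cd8a alone in 9 and 80, and Cd8b1 alone in 18 and 101. The median cell had 8 (control) and 10 (haplodeficient) Cd3 UMIs and 4 Cd8 UMIs in either library. At the edge of the rule, 14 and 72 cells entered on exactly 1 Cd8 UMI and 1 and 2 on exactly 1 Cd3 UMI. Of the cells with Cd3 and Cd8 UMIs, 1 and 16 were kept out by Cd4, 5 and 27 by Slc12a1, and 2 and 24 by the C1q genes, where no cell had 5 to 9 C1q UMIs. A further 96 and 554 cells had Cd3 UMIs with neither Cd8 nor Cd4.

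The libraries differed before any gene was compared. Kept cells had a median of 9160 UMIs and 10.2% mitochondrial UMIs in the control library, against 5861.5 UMIs and 2.72% in the haplodeficient one. CD8 T cells differed less, with medians of 2989 and 2772 UMIs, 1366.5 and 1275.5 genes, and 3.82% and 2.10% mitochondrial UMIs. A few deep cells carried a large part of the transcripts. The 5 control and 47 haplodeficient CD8 T cells above 3 times their library's median held 30.3% and 39.7% of the UMIs. Scrublet, a doublet caller, marked 5 and 33 CD8 T cells, which were kept. RNA free in the suspension came to an estimated 17.1% and 18.8% of their UMIs, a median over 10 and 12 tubule markers. The single values of these markers ran from 2.48% to 47.0% and from 5.10% to 61.0%. In the control 1 further marker was left out, as it had more UMIs than expected if all RNA were free. Of the kept cells' barcode sequences 28 occurred in both libraries, and none of these was a CD8 T cell.

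CD8 T cells were a larger part of the haplodeficient library. They made up 0.719% (0.559 to 0.911) of 9452 kept control cells and 4.83% (4.42 to 5.27) of 10026 haplodeficient cells, a ratio of 6.71. Among cells with a UMI of Ptprc, the pan-leukocyte gene for CD45, they made up 3.94% (3.05 to 4.99) of 1651 and 11.4% (10.4 to 12.4) of 4029 cells, a ratio of 2.89. Within cells with a Cd3 UMI the shares were closer, at 29.6% (23.7 to 35.9) of 230 and 34.1% (31.6 to 36.6) of 1420 cells, with overlapping intervals. CD8 T cells were 66.0% (56.0 to 75.1) and 69.5% (66.0 to 72.9) of the CD8 and CD4 T cells together. The 2 libraries thus stood apart in how many CD8 T cells they held among all cells and among leukocytes, and not in the CD8 share of T cells. These are shares of barcodes, so they also move with how many other cells each suspension yielded.

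**Figure D1:**
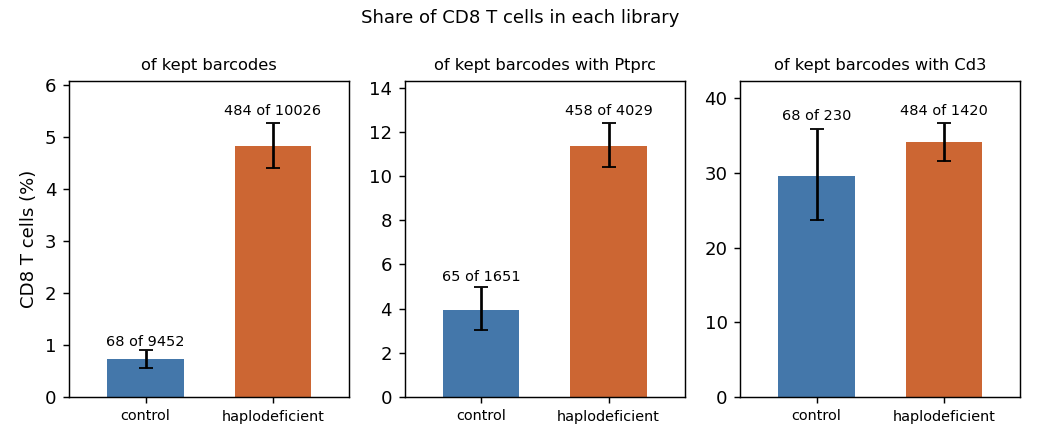
Share of CD8 T cells (y axis, percent) among all kept barcodes, those with a Ptprc UMI and those with a Cd3 UMI, in each library, with numbers of cells above the bars. Error bars are exact 95% intervals for counting error. They are apart in the first 2 panels (0.719% against 4.83%, and 3.94% against 11.4%) and overlap in the third.

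Expression was compared on the UMIs summed over the CD8 T cells of a library, 293300 control and 2157825 haplodeficient UMIs, scaled to a common total (CPM, the usual per-library scaling of counts). Log2 ratios set the haplodeficient against the control CPM with 5 CPM added to either value, so ratios of low genes come out too small. Genes with a mean of 50 CPM or more over the libraries, and 30 or more UMIs in all, were eligible. A gene passed the size rule with an absolute log2 ratio of at least 1 and intervals that did not overlap. Of 3317 eligible genes, 62 (1.87%) were higher and 126 (3.8%) lower in the haplodeficient library by this rule, 5.67% in all. The median log2 ratio was -0.03, and 47.9% of eligible genes had a ratio above 0. Both counts moved with the cells used. Leaving out Scrublet-marked cells gave 153 higher genes, 56.0% of the calls against 33.0%, and thinning every cell to 1000 UMIs before summing gave 35 higher and 51 lower genes. Shares of cells with a UMI depend on depth, so each cell was also thinned at random to 1000 UMIs, which left 67 control and 479 haplodeficient CD8 T cells. As background, the same share was taken in thick ascending limb cells (at least 10 Slc12a1 UMIs, 831 and 848 cells, with a median of 13910 and 14426 UMIs before thinning), which should lack T-cell genes.

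Effector genes passed in both directions. Of the 30 in the list, 21 were eligible, 2 of them passed as higher (Tnf, Ccl4) and 3 as lower (Gzma, Klrc1, Zeb2). Over all eligible genes 1.87% passed as higher and 3.8% as lower. The median log2 ratio of the effector genes was -0.09 against -0.03 over all eligible genes. The sign of that median is not stable, since 6 of the alternatives put it above 0. Those that passed as higher encode a cytokine and a chemokine, and those that passed as lower a granzyme, an NK-type receptor chain and a transcription factor.

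Ccl5, a chemokine that draws in T cells and monocytes, had the most UMIs of the effector genes. It stood at 4061 CPM (3833 to 4298) in the control on 1191 UMIs and 6317 CPM (6212 to 6424) in the haplodeficient library on 13632 UMIs, a ratio of 1.56 (1.47 to 1.65). At least 1 Ccl5 UMI was found in 89.7% and 95.7% of cells. In thinned cells the shares were 79.1% and 88.1%, against 0.602% and 0.354% of thick ascending limb cells. Ccl4, a chemokine that attracts T cells and macrophages, had 67 and 1429 UMIs, or 228 CPM (177 to 290) and 662 CPM (628 to 697), a log2 ratio of 1.52. In the control 43.3% of Ccl4 UMIs came from 1 cell. Its neighbour Ccl3 was not eligible, at 10.2 CPM on 3 UMIs and 42.6 CPM on 92 UMIs. Ccl3 and Ccl4 are similar in sequence, so reads split between them are possible. Xcl1, which attracts cross-presenting dendritic cells, had 256 and 441 CPM, with a ratio of 1.72 (1.36 to 2.21) that stayed under the size rule.

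Tnf, the gene of tumour necrosis factor, lies on chromosome 17 from 35199381 to 35202007 (minus strand, GRCm38, GENCODE M21). It had 13 UMIs in control cells and 400 in the haplodeficient library, or 44.3 CPM (23.6 to 75.8) and 185 CPM (168 to 204), a log2 ratio of 1.95. Ifng, the interferon gamma gene, was at 116 CPM (80.3 to 162) on 34 UMIs and 209 CPM (190 to 229) on 451 UMIs. Its intervals were apart but its log2 ratio of 0.82 missed the rule. Tnf and Ccl4 passed the rule in all 15 alternatives, with log2 ratios of 1.81 to 2.14 and 1.20 to 1.64.

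The granzymes, serine proteases of cytotoxic granules, were not higher in the haplodeficient library. Gzmb was at 409 CPM (339 to 489) and 203 CPM (184 to 223), a log2 ratio of -0.99 just short of the rule. Gzmk was close in both libraries, at 211 CPM (162 to 271) and 198 CPM (180 to 218). Gzma was at 276 CPM (219 to 343) and 103 CPM (90.2 to 118), a log2 ratio of -1.38. A single cell gave 38.3% of control Gzma UMIs, and the log2 ratio was -0.98 without the deep cells and -0.91 without cells that had a UMI of a gamma delta or NK gene. Perforin (Prf1) was sparse, at 27.3 and 28.7 CPM on 8 and 62 UMIs. Nkg7, a granule membrane protein, was at 1084 and 1451 CPM, and Fasl, the death ligand, at 157 and 145 CPM.

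NK-type receptors and transcription factors were even or lower. Klrc1, the gene of the inhibitory receptor chain NKG2A, which has close paralogs among which reads can be split, had 25 and 51 UMIs, or 85.2 CPM (55.2 to 126) and 23.6 CPM (17.6 to 31.1), a log2 ratio of -1.66 that lost the call in 2 of the 15 alternatives. Klrd1, its partner chain, was at 106 and 116 CPM and Klrk1 (NKG2D) at 143 and 99.6 CPM. Zeb2, a transcription factor of terminal effector cells, was at 198 CPM (150 to 256) and 90.8 CPM (78.6 to 104), a log2 ratio of -1.08 that came to -0.43 without cells with a gamma delta or NK gene UMI. Tbx21, the gene of T-bet, was at 98.9 and 105 CPM. S1pr5, a receptor of circulating effector cells, had no UMI in either library, and Klrg1 and Cx3cr1 had 6 and 2 UMIs in control cells and 37 and 25 in the haplodeficient library. These genes of circulating effector cells were near the floor in both libraries.

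Of the 21 naive and memory genes 16 were eligible, none passed as higher and 2 passed as lower (Satb1, Igfbp4). The median log2 ratio was -0.52, with 12 of the 16 below 0, and it ran from -0.55 to -0.27 over the alternatives. Among all eligible genes 3.8% passed as lower, 47.9% had a ratio above 0 and the median was -0.03. Satb1, a chromatin organiser of naive and precursor T cells, is encoded on chromosome 17 from 51736187 to 51833290 (minus strand). It had 64 and 123 UMIs, or 218 CPM (168 to 279) and 57.0 CPM (47.4 to 68.0), a log2 ratio of -1.85, and it passed in all 15 alternatives. Igfbp4 had 70.8% of its 24 control UMIs in 1 cell and its log2 ratio turned from -1.38 to 1.04 without the deep cells.

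Other memory genes lay lower without passing. Lef1, a transcription factor of naive and stem-like memory cells, was at 136 CPM (97.4 to 186) and 71.4 CPM (60.5 to 83.6). Il7r, the receptor that keeps memory cells alive, was at 300.03 CPM (241 to 370) and 175 CPM (158 to 193). Bach2, which restrains effector differentiation, was at 164 and 85.3 CPM, and Ly6c2 at 327 and 229.9 CPM. Tcf7, the partner of Lef1, was low and even, at 40.9 CPM on 12 UMIs and 41.7 CPM on 90 UMIs. Ccr7, a lymph node homing receptor, was nearly absent, with 1 and 30 UMIs. Cd27, a co-stimulatory receptor, went the other way at 81.8 and 143 CPM, a ratio of 1.74 (1.15 to 2.76), as did Klf2 at 136 and 269 CPM. Klf2 was more frequent outside T cells, with 11.9% and 8.14% of CD8 T cells but 16.5% and 33.7% of thick ascending limb cells having a UMI after thinning. The share of thinned CD8 T cells with Klf2 was thus not higher in the haplodeficient library, unlike its CPM.

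No gene of tissue residency passed, with 11 of 15 eligible and a median log2 ratio of -0.22. Among all eligible genes 5.67% passed and the median was -0.03. Cxcr6, a chemokine receptor that retains T cells in tissue, was at 351 CPM (287 to 426) and 327 CPM (303 to 352) and found in 61.8% and 66.1% of cells. Itga1, the collagen-binding integrin CD49a, was at 249 and 215 CPM, and Itgae, the epithelium-binding integrin CD103, at 64.8 and 66.7 CPM. The intervals of all 3 genes overlapped between the libraries. Rgs1, a regulator that dampens exit signals, was at 470.5 and 597 CPM. Cd69, an early activation and retention gene, was the highest in ratio, at 85.2 CPM (55.2 to 126) and 174 CPM (157 to 192), a log2 ratio of 0.99. Zfp683, the gene of the residency factor Hobit, had 2 and 22 UMIs.

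**Figure D2:**
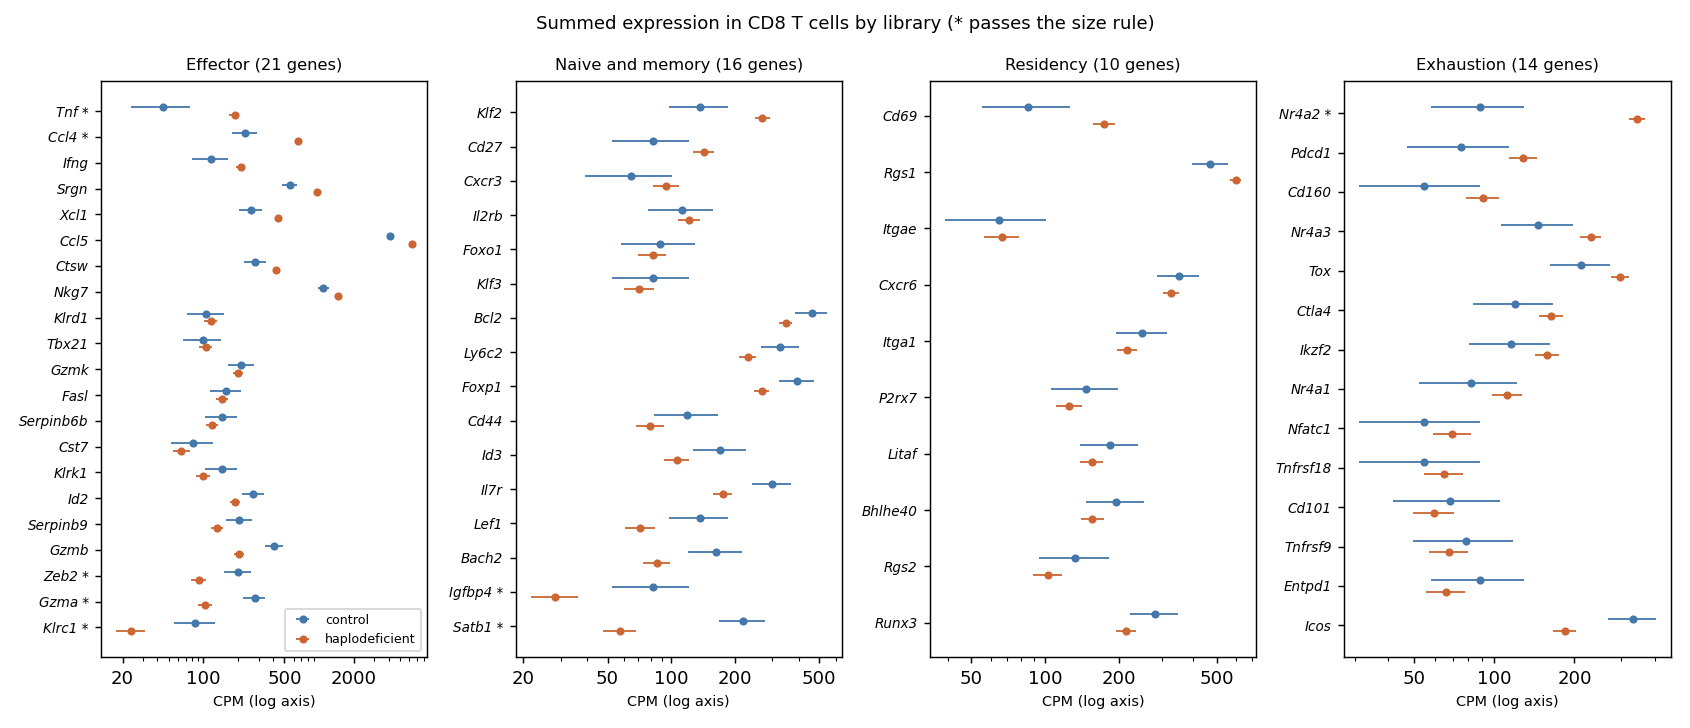
CPM (x axis, log scale) of eligible effector, naive and memory, residency and exhaustion genes in the CD8 T cells of the control and haplodeficient libraries. Points are values of summed UMIs, lines exact 95% Poisson intervals, and stars mark genes past the size rule, as Tnf (44.3 against 185 CPM), Satb1 (218 against 57.0 CPM) and Nr4a2 (88.6 against 343 CPM).

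Among 24 exhaustion genes 14 were eligible, 1 passed as higher (Nr4a2) and none as lower. Of these, 10 had a log2 ratio above 0 and the median was 0.43, between 0.13 and 0.46 over the alternatives. Among all eligible genes 1.87% passed as higher, 47.9% had a ratio above 0 and the median was -0.03. Nr4a2, a nuclear receptor induced by T-cell receptor signals, is encoded on chromosome 2 from 57106830 to 57124003 (minus strand). It had 26 and 741 UMIs, or 88.6 CPM (57.9 to 130) and 343 CPM (319 to 369), a log2 ratio of 1.90 that held in all 15 alternatives (1.81 to 2.504). Its relatives Nr4a1 and Nr4a3 were at 81.8 and 112 CPM and at 147 and 229.9 CPM, short of the rule.

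Inhibitory receptors were few. Pdcd1, the gene of PD-1, had 22 and 277 UMIs, or 75.0 CPM (47.0 to 114) and 128 CPM (114 to 144), a ratio of 1.71 (1.11 to 2.78), and was found in 17.6% and 32.0% of cells. Ctla4 was at 119 and 164 CPM, with overlapping intervals. Tigit was at 37.5 and 27.8 CPM, and Lag3 and Havcr2, the gene of TIM-3, had 1 UMI each in control cells and 19 and 11 in the haplodeficient library. Tox, the transcription factor that stabilises exhaustion, was at 211 CPM (162 to 271) and 297 CPM (275 to 321), with 641 UMIs behind the second value. Tox2 had 0 and 12 UMIs. The co-stimulatory receptor Icos was at 331 CPM (268 to 403) and 184 CPM (166 to 203), a ratio of 0.556 (0.445 to 0.702), and Entpd1 (CD39), Tnfrsf9 (4-1BB) and Cd101 had overlapping intervals. Taken by gene, Pdcd1, Tox and the Nr4a genes lay on the higher side and Icos on the lower side, while the late inhibitory receptors were near the floor in both.

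The share of thinned cells with a UMI set a few genes apart. Nr4a2 was found in 7.46% (2.47 to 16.6) of thinned control and 29.4% (25.4 to 33.7) of thinned haplodeficient cells, against 27.9% and 55.2% unthinned and 1.44% and 1.53% of thick limb cells. Ccl4 was found in 16.4% (8.49 to 27.5) and 39.7% (35.3 to 44.2) of thinned cells, and Srgn, the proteoglycan that packs granules, in 44.8% (32.6 to 57.4) and 68.7% (64.3 to 72.8). Lef1 was found in 19.4% (10.8 to 30.9) and 7.10% (4.97 to 9.78), and Satb1 in 17.9% (9.61 to 29.2) and 5.43% (3.58 to 7.85). The thick limb shares of Ccl4, Srgn, Lef1 and Satb1 were at most 1.65%. Of the genes in the 4 lists (30, 21, 15 and 24 genes) these 5 were the ones with intervals apart after thinning. The share of such genes among all eligible genes was not computed, so the 5 cannot be set against a background. Tnf reached 5.97% and 13.4% of cells with overlapping intervals, and Pdcd1 5.97% and 13.8%.

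**Figure D3:**
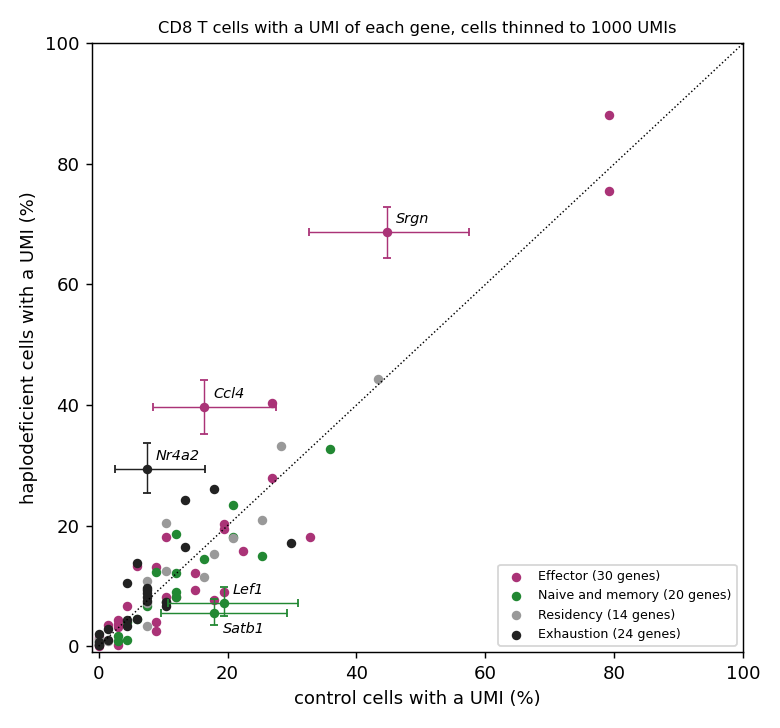
Percent of CD8 T cells with at least 1 UMI of genes of the 4 lists, control (x axis) against haplodeficient (y axis), every cell thinned to 1000 UMIs. The dotted line marks equal shares, and the 5 named genes have exact 95% intervals (error bars) that do not overlap between libraries, as Nr4a2 at 7.46% and 29.4%.

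Granzyme use was spread over cells. In thinned cells Gzmk without the other granzymes had shares of 16.4% (8.49 to 27.5) and 14.0% (11.01 to 17.4) in the control and haplodeficient libraries, Gzmb alone 7.46% (2.47 to 16.6) and 12.1% (9.32 to 15.4), and Gzmk with Gzmb 11.9% (5.30 to 22.2) and 2.71% (1.45 to 4.60). The Gzmk and Gzmb combination was apart after thinning but not before it, at 13.2% (6.23 to 23.6) and 11.8% (9.04 to 14.99). Any of Gzma, Gzmb and Gzmk was seen in 44.8% and 32.8% of thinned cells and in 58.8% and 58.3% unthinned. Ifng or Tnf was seen in 14.9% (7.40 to 25.7) and 25.3% (21.4 to 29.4) of thinned cells.

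Few cells had UMIs of 3 or more inhibitory receptor genes. Of Pdcd1, Lag3, Havcr2, Tigit and Ctla4, none was seen in 76.1% (64.1 to 85.7) of thinned control and 69.1% (64.8 to 73.2) of thinned haplodeficient cells. Cells with 3 or more of them were 0 of 67 and 0.418% (0.0506 to 1.5) of 479. Unthinned, 0 of 68 control and 21 of 484 haplodeficient cells (4.34%, 2.71 to 6.56) had 3 or more. Exactly 2 were seen in 1.49% and 4.18% of thinned cells. Unthinned, 6 of 68 control (8.82%, 3.31 to 18.2) and 74 of 484 haplodeficient cells (15.3%, 12.2 to 18.8) had exactly 2. Co-expression is missed more often at low depth, so the thinned shares are low in part through thinning.

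**Figure D4:**
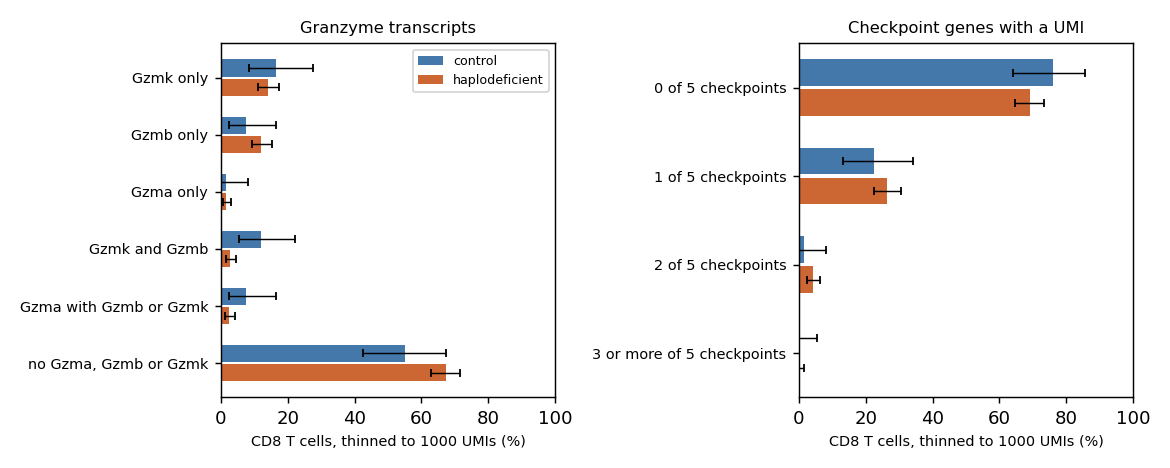
Percent of CD8 T cells (x axis), each thinned to 1000 UMIs, by granzyme transcripts and by how many of 5 checkpoint genes had a UMI (Pdcd1, Lag3, Havcr2, Tigit, Ctla4), in 67 control and 479 haplodeficient cells. Error bars are exact 95% intervals, which are apart for Gzmk with Gzmb (11.9% and 2.71%).

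Cytokine receptor genes leaned lower in the haplodeficient library, in a list that is not limited to cytokines that arm CD8 T cells. Of 17 cytokine receptor genes 10 were eligible, 3 passed as lower (Il18r1, Il18rap, Il12rb2), none as higher, and 9 of 10 had a log2 ratio below 0, with a median of -0.59. Over all eligible genes 3.8% passed as lower, 47.9% had a ratio above 0 and the median was -0.03. Il18r1, the ligand-binding chain for interleukin 18, was at 181 CPM (135 to 236) and 71.4 CPM (60.5 to 83.6), a log2 ratio of -1.28 that held in all 15 alternatives. Its accessory chain Il18rap was at 78.4 CPM (49.7 to 118) and 29.2 CPM (22.4 to 37.4), a log2 ratio of -1.29 that lost the call in 2 of the 15 alternatives. In thinned cells Il18r1 was found in 17.9% (9.61 to 29.2) and 6.89% (4.79 to 9.54), against 38.2% and 16.1% unthinned and 2.17% and 1.42% of thick limb cells. Il12rb2, the signalling chain for interleukin 12, was at 188 CPM (141 to 244) and 66.7 CPM (56.3 to 78.6), a log2 ratio of -1.42. That value came to -0.33 without the cells that had a Mki67 or Top2a UMI, and 34 of 55 control Il12rb2 UMIs lay in the 17 control cells with such a UMI. Il21r and Tgfbr2 were lower without passing, at 239 and 157 CPM and at 286 and 189.5 CPM, and Il2rb, shared by the receptors for interleukins 2 and 15, was even at 113 and 121 CPM.

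Genes of antigen receptor signalling did not separate the libraries. All 20 were eligible, none passed (5.67% of all eligible genes did), and the median log2 ratio was -0.07. Trac, the constant gene of the alpha chain, was at 406 and 443.5 CPM. The kinase genes Lck and Zap70 were at 320.5 and 304 CPM and at 133 and 102 CPM. Cd28, the main co-stimulatory receptor, was at 150.0 and 228 CPM, or a ratio of 1.52 (1.12 to 2.12). Of the migration genes, 13 of 17 were eligible and none passed, with Ccr2, a receptor for monocyte chemokines, at 153 and 77.9 CPM and Cxcr3, the receptor for interferon-induced chemokines, at 64.8 and 94.5 CPM.

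Interferon-responsive genes leaned higher in the haplodeficient library. Of 27 in the list 26 were found under their symbols, 16 were eligible, 4 passed as higher (Ifit1, Bst2, Ifi27l2a, Ly6a) and none passed as lower. All 16 had a log2 ratio above 0, with a median of 0.52 against -0.03 over all eligible genes. Among all eligible genes 1.87% passed as higher and 47.9% had a ratio above 0. Interferons act through STAT and IRF factors, and IRF factors bind a repeated TTTC element in promoters of many such genes. The word searched was TTTC, any 2 bases and TTTC again, on either strand, with overlapping matches counted, in the 250 bases before each RefSeq start. It was present in 6 of 14 promoters (42.9%) of the 10 eligible genes with an entry in the table, in 11 of 25 promoters (44.0%) of the whole list, and in 2.98% of all 32851 promoters (GRCm38.p6). Such a match describes the letters only and says nothing of binding. The 4 promoters of eligible genes with 2 or more matches are shown, 5′ to 3′ in the direction of the gene, with matches to the word in capitals.
Ifit1: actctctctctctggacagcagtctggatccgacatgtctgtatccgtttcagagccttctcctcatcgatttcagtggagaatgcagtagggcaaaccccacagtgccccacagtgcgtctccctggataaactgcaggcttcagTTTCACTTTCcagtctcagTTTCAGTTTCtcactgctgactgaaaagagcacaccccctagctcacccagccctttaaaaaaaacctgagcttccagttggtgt
Ifit3: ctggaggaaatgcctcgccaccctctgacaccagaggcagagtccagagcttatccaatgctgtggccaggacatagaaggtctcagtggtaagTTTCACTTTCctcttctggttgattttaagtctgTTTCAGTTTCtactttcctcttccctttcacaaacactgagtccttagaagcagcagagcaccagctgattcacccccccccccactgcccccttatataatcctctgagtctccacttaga
Isg15: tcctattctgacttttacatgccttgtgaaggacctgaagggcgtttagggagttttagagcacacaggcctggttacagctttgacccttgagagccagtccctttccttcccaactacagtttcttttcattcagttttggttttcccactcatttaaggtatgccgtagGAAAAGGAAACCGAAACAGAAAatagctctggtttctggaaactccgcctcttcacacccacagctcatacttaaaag
Bst2: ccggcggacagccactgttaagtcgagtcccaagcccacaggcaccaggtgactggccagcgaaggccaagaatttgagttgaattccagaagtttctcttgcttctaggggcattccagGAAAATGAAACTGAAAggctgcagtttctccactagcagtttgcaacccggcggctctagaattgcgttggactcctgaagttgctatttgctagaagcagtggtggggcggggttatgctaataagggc
They lie at chr19:34640639-34640888 (Ifit1, plus strand), chr19:34583279-34583528 (Ifit3, plus strand), chr4:156200819-156201068 (Isg15, minus strand) and chr8:71537473-71537722 (Bst2, minus strand).

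Among these genes Ifi27l2a, an interferon-induced protein of unsettled function, was the most abundant. It had 137 and 2850 UMIs, or 467 CPM (392 to 552) and 1321 CPM (1273 to 1370), a log2 ratio of 1.49, and was found in 31.3% (20.6 to 43.8) and 55.1% (50.5 to 59.6) of thinned cells, against 0.481% and 2.59% of thick limb cells. Bst2, the gene of tetherin, which holds virus particles at the cell surface, was at 68.2 CPM (41.7 to 105) and 222 CPM (202 to 242), a log2 ratio of 1.63. Both passed in all 15 alternatives. Ifit1, a sensor of viral RNA, had 9 and 152 UMIs, or 30.7 CPM (14.0 to 58.3) and 70.4 CPM (59.7 to 82.6), and its log2 ratio of 1.08 missed the rule in 7 of the 15 alternatives. Isg15, a ubiquitin-like modifier, was at 92.1 and 178 CPM and Ifit3 at 44.3 and 63.0 CPM. Ly6a was at 344 and 1123 CPM, but it was found in 73.5% and 94.8% of thinned thick limb cells against 31.3% and 31.7% of CD8 T cells, and its log2 ratio was 0.63 with each cell thinned before summing. Oasl2, not eligible, had 0 and 63 UMIs.

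Cells with transcripts of division were present in both libraries, with overlapping intervals. Mki67 or Top2a was seen in 13.4% (6.33 to 24.0) of thinned control and 9.39% (6.94 to 12.4) of thinned haplodeficient cells, and in 17 of 68 and 88 of 484 unthinned. Of 14 genes of dividing cells 9 were eligible and only Ube2c passed, as higher, beside 1.87% of all eligible genes. Ube2c was at 40.9 CPM on 12 UMIs and 93.6 CPM on 202 UMIs, with a log2 ratio of 1.103 that was 0.35 without the deep cells. Mki67 was at 130 CPM (91.7 to 178) and 68.1 CPM (57.6 to 80.1).

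The targeted gene was hardly detected in CD8 T cells. Egln3, which encodes PHD3, had 1 control and 11 haplodeficient UMIs, at 3.41 CPM (0.0863 to 19.0) and 5.10 CPM (2.54 to 9.12), so a difference was not detectable at this depth. Its relatives Egln1 and Egln2 were at 71.6 and 59.8 CPM and at 30.7 and 27.3 CPM. Of 17 genes of the hypoxia response and glycolysis 9 were eligible, none passed (5.67% of all eligible genes did) and the median log2 ratio was -0.03. Ldha, lactate dehydrogenase, was at 327 CPM (265 to 400) and 319.8 CPM (296 to 345), and Hif1a at 130 and 103 CPM.

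Immediate-early and other stress genes, which tissue dissociation also induces, leaned higher in the same library as 1 mixed list. Of 16 genes 14 were eligible, 1 passed as higher (Dusp1, log2 ratio 1.01), 11 had a log2 ratio above 0, and the median was 0.66. Among all eligible genes 1.87% passed as higher, 47.9% had a ratio above 0 and the median was -0.03. Dusp1 missed the rule in 5 of the 15 alternatives, with a log2 ratio of 0.62 when each cell was thinned before summing. Junb was at 1067 CPM (952 to 1192) and 2065 CPM (2004 to 2126) and was found in 52.2% (39.7 to 64.6) and 75.6% (71.5 to 79.4) of thinned cells, against 45.2% and 46.5% of thick limb cells. Nfkbia, a gene that NF-kB induces and that feeds back on it, was at 263 and 437 CPM. The part of this response in the higher Tnf, Ccl4 and Nr4a2 was not tested.

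Markers of other cell types differed between the libraries in the same summed UMIs. Proximal tubule markers, all 7 of which had UMIs in both libraries, summed to 1544 CPM in control cells and 304 CPM in the haplodeficient CD8 T cells, and at least 1 was seen in 83.8% and 8.47% of cells. The neutrophil markers S100a8, S100a9, Csf3r and Retnlg had no UMI in control cells and summed to 449 CPM in 4.34% of haplodeficient cells. Macrophage markers summed to 167 and 392 CPM, with Adgre1 and Csf1r at 0 in control cells and at 2 and 12 UMIs in the haplodeficient library. Dendritic cell markers summed to 98.9 and 276 CPM, with Xcr1 and Clec9a at 0 in both. Endothelial markers summed to 47.7 and 204 CPM, with Emcn, Kdr and Plvap at 0 in the control. Distal nephron markers summed to 375 and 225 CPM and stromal markers to 61.4 and 16.2 CPM. The part of these cells' RNA in the differences above was not tested.

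Most markers of other lymphocytes were sparse in summed UMIs. The 6 gamma delta T-cell genes summed to 40.9 and 119 CPM, and at least 1 of Trdc, Tcrg-C1, Tcrg-C2 and Tcrg-C4 was seen in 7.46% (2.47 to 16.6) and 7.93% (5.67 to 10.7) of thinned cells. Unthinned, the shares were 11.8% (5.22 to 21.9), 8 of 68 control cells, and 19.0% (15.6 to 22.8), 92 of 484 haplodeficient cells. Ncr1, the defining NK receptor, had no UMI in either library, though Fcer1g, a signalling chain of NK and myeloid cells, had 3 and 218 UMIs. NK markers summed to 47.7 and 197 CPM, those of innate-like T cells to 54.6 and 52.8 CPM, and those of CD4 T cells to 51.1 and 51.4 CPM. Foxp3, the gene of regulatory T cells, had 0 and 1 UMI. B-cell markers summed to 283 and 43.1 CPM. Among them Ms4a1 had 0 and 1 UMI, and 87.7% of the 73 control UMIs of Igkc came from 1 cell.

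The genes with the most extreme ratios were mostly those of other cells. The 15 lowest were Igkc, Map1b, Ptprd, Gpx3 and 11 genes of proximal or distal tubule, such as Pck1, Slc34a1, Kap and S100g. For 13 of the 15, over 60% of the control UMIs came from a single cell, with Kap (46.6%) and Cltrn (56.8%) the exceptions. The 15 highest held the T-cell genes Nr4a2 and Tnf, the neutrophil genes S100a9 and S100a8, the inflammatory genes Il1b, Cxcl1 and Cxcl2, the injured tubule gene Lcn2 and the epithelial genes Krt7, Krt19 and Sfn, besides Hbegf, Hspb1, Fcer1g and Tm4sf1. Cxcl2 reached 554 CPM in the haplodeficient library with 55.1% of its UMIs in 1 cell, and Lcn2 1303 CPM with 41.9% in 1 cell, whereas the cell with the most UMIs of the gene gave 1.89% of Nr4a2 and 9.50% of Tnf UMIs.

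CD8 T cells were next compared with CD4 T cells, chosen by the same rule with Cd4 in place of Cd8 and no Cd8 UMI, 35 control and 212 haplodeficient cells. In these, 6 control and 13 haplodeficient cells above 3 times the median held 51.5% and 31.6% of the UMIs. Free RNA came to an estimated 5.57% and 27.4% of CD4 T-cell UMIs, with 1 control tubule marker above expectation left out. A gene was called where it passed the size rule in the same direction in both libraries, and 36 of 2748 eligible genes (1.31%) were higher in CD8 T cells and 57 (2.07%) lower, 3.38% in all. In the effector list 11 of 18 eligible genes were higher in CD8 T cells and none lower. Gzmb was at 409 against 49.9 CPM in control cells and 203 against 5.23 CPM in the haplodeficient library. Gzma was at 276 against 4.99 and 103 against 2.09 CPM, and Nkg7 at 1084 against 229.6 and 1451 against 317 CPM. Ccl5 was at 4061 against 669 and 6317 against 951 CPM. Klrd1, Klrk1, Gzmk, Ccl4, Ctsw, Serpinb9 and Serpinb6b were the others.

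Residency genes were higher for 3 of 10, among them Itga1 (249 against 64.9 and 215.5 against 70.1 CPM) and Runx3, a factor that specifies the CD8 lineage (279.6 against 94.8 and 213 against 60.7 CPM). Exhaustion and co-stimulation genes went the other way, with 4 of 12 lower in CD8 T cells and none higher. Ctla4 was at 119 against 509 CPM in control cells and 164 against 543 CPM in the haplodeficient library, and Icos at 331 against 724 and 184 against 566 CPM, followed by Tnfrsf9 and Tnfrsf18. Cd40lg, the helper ligand, was lower at 37.5 against 205 and 28.3 against 474 CPM. The 4 eligible endothelial genes (Emcn, Pecam1, Flt1, Kdr) were also lower in CD8 than in CD4 T cells in both libraries, at 0 against 364 and 39.4 against 174 CPM for Emcn, and the part of endothelial RNA in this comparison was not tested. Without Scrublet-marked cells 20 genes were higher and 35 lower.

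NK cells, taken as cells without Cd3 and with Ncr1 or Klrb1c, were only 15 and 44, and dendritic cell genes (H2-Ab1 at 936 and 797 CPM, Cd74 at 1960.1 and 2218 CPM) were high among them. The proximal tubule gene Kap was at 20352 and 1463 CPM in the NK cells, free RNA came to an estimated 31.2% and 41.0% of their UMIs, and 2 and 8 cells above 3 times the median held 54.2% and 67.8% of the UMIs. The part of this RNA in the comparison was not tested. The free RNA estimate of these NK cells left out 1 and 2 tubule markers that were above expectation. Against these cells, 92 of 2322 eligible genes (3.96%) were higher in CD8 T cells and 84 (3.62%) lower, 7.58% in all. Genes of antigen receptor signalling were higher for 15 of 19, among them Themis, a regulator of T-cell selection, at 525 against 0 and 380.5 against 0 CPM. Gzmk was at 211 against 0 and 198 against 5.14 CPM and Cxcr6 at 351 against 0 and 327 against 5.14 CPM, while Gzma was lower in CD8 T cells, at 276 against 1466 and 103 against 1455 CPM. The NK genes Tyrobp, Fcer1g, Klra4 and Klre1 were lower in CD8 T cells. Gzmk and Cxcr6 were thus on the CD8 side and Gzma on the NK side in both libraries. Without the deep cells 45 genes were higher and 35 lower.

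**Figure D5:**
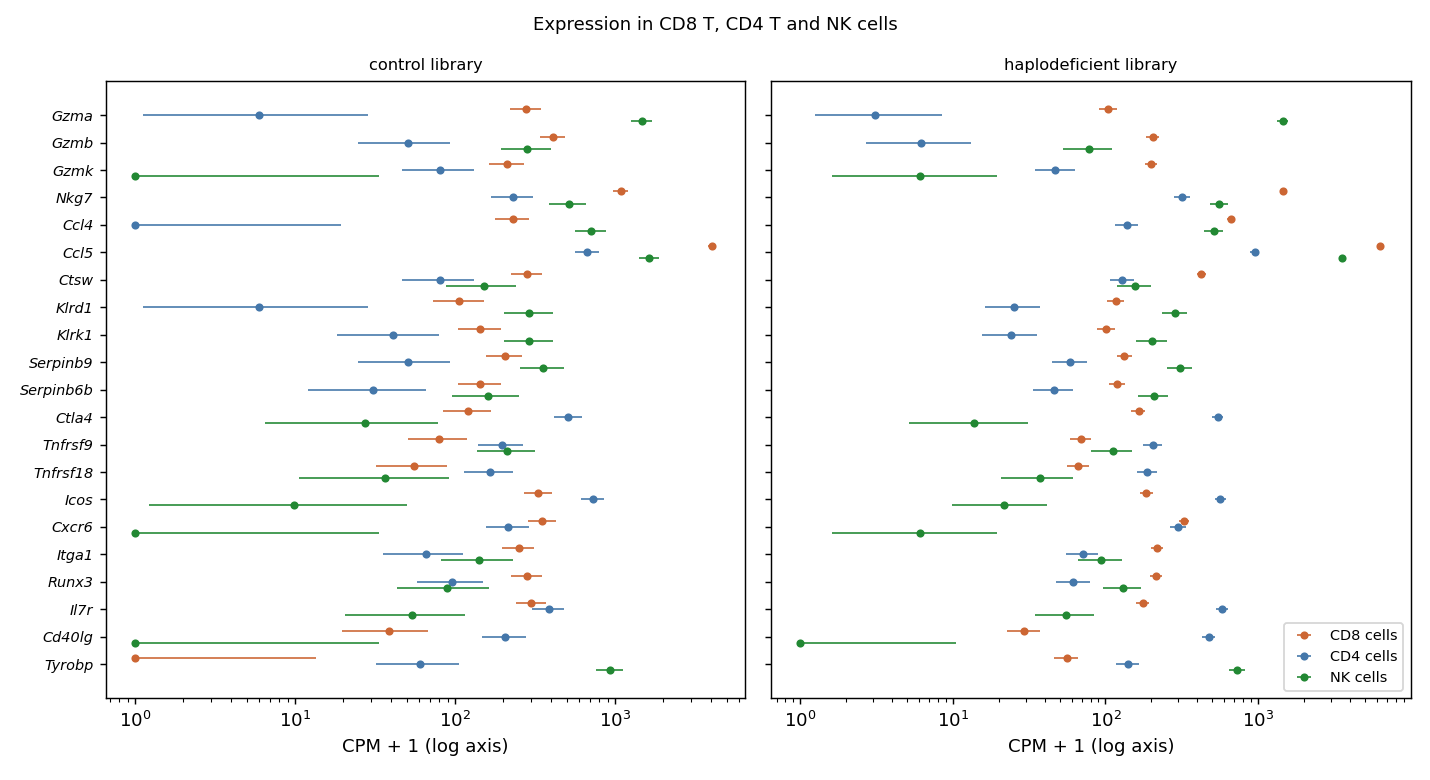
CPM + 1 (x axis, log scale) of 21 genes in CD8 T, CD4 T and NK cells of the control (left) and haplodeficient (right) library, as points with exact 95% Poisson intervals. The granzymes and Nkg7 lie above CD4 T cells in both libraries (Gzmb 409 against 49.9 CPM in the control), Ctla4 and Icos below them, and Gzmk and Cxcr6 above NK cells.

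For a choice of genes, the haplodeficient over control ratios in CD8 T cells are set beside those of the other classes, without a test of the difference. All but Il7r and Pdcd1 passed the size rule in CD8 T cells, and not every gene that passed is shown. Tnf had a ratio of 4.18 (2.42 to 7.92) in CD8 and 8.17 (4.10 to 19.1) in CD4 T cells, Ifi27l2a 2.83 (2.38 to 3.38) and 3.05 (2.56 to 3.67), and Bst2 3.25 (2.08 to 5.37) and 5.40 (2.80 to 11.96). Nr4a2 had 3.87 (2.62 to 5.97) and 2.63 (1.601 to 4.59) in CD8 and CD4 T cells, and 0.714 (0.464 to 1.12) in NK cells. Ccl4 had 0 control and 131 haplodeficient UMIs in CD4 T cells and a ratio of 0.724 (0.556 to 0.951) in NK cells. These higher genes thus leaned the same way in both T-cell classes.

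The lower genes showed a mixed picture. Il12rb2 had ratios of 0.356 (0.259 to 0.495) in CD8 T cells, 0.352 (0.203 to 0.627) in CD4 T cells and 0.399 (0.236 to 0.681) in NK cells. Satb1 had 0.261 (0.192 to 0.359) in CD8 T cells and 0.908 (0.578 to 1.48) in CD4 T cells. Il18r1 had 0.395 (0.287 to 0.550) and 1.41 (0.973 to 2.12). Il7r, which was lower in CD8 T cells without passing the size rule, had 0.582 (0.461 to 0.743) and 1.51 (1.19 to 1.94). Pdcd1, which was not lower in CD8 T cells and did not pass the rule, had 1.71 (1.11 to 2.78) in CD8 and 0.602 (0.374 to 1.003) in CD4 T cells. For Satb1, Il18r1, Il7r and Pdcd1 the intervals of the 2 T-cell classes did not overlap.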

How the data were processed

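Single-cell suspensions of kidney were profiled by droplet 3′-end RNA sequencing, per the labels' protocols. The authors deposited raw counts of UMIs per gene and barcode, unfiltered, made with Cell Ranger 4 per the file headers, on mm10 per the submitters' processing notes. A hashing step is named in the labels' protocols, but only gene features were used here. UMIs of each gene were summed over CD8 T cells per library and scaled to CPM. CPM have exact Poisson intervals, shares Clopper-Pearson intervals and ratios exact conditional binomial intervals. Ambient RNA was profiled in barcodes of at most 100 UMIs. Doublets were scored with Scrublet in scanpy 1.11.5 at 0.8% per 1000 cells and kept in the main values. The size rule and thinning were tested on simulated counts. Python 3.11.15, numpy 2.4.6, scipy 1.17.1 and pandas 2.3.3 were used. Gene positions are from GENCODE M21.

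The members, gene lists, rules and alternatives were chosen with earlier results of these data known, so their direction is not independent evidence. Named genes are those of the lists (effector, naive and memory, residency, exhaustion, T-cell receptor signalling, migration, cytokine receptors, interferon, dividing, hypoxia and glycolysis, dissociation, and markers of 12 other cell types), the 15 highest and 15 lowest among genes past the size rule between libraries, and the 10 highest and lowest called against CD4 T and NK cells. No set test was run. A few items and the results that need them are not reported here. The self-test, thinning and figures used fixed random seeds.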

Additional observations from a re-analysis of the deposited data

How the results depend on the processing

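No paired analysis was possible because each group is 1 library. The ratio of the CD8 T-cell shares stayed between 5.46 and 7.32 (among Ptprc cells 2.69 to 3.19). The share was 0.540% (control) and 3.95% (haplodeficient) without Mki67 or Top2a cells, and in the haplodeficient library 4.10% with at least 2 Cd3 and 2 Cd8 UMIs, 3.90% without gamma delta and NK gene UMIs and 4.36% without members over 3 times the median UMIs. Leaving out these deep members and thinning each member to 1000 UMIs before summing were chosen after seeing the data. The size rule called 188 genes (62 higher, 126 lower) as reported, 397 (169 and 228) with eligibility from a mean of 10 CPM, 533 (183 and 350) with no minimum and 86 (35 and 51) with members thinned. Without Scrublet-marked cells 153 genes were higher. Calls shared with the 188 were 76 of 134 without deep members, 47 of 86 with members thinned and 91 of 273 without Scrublet-marked cells. The effector median of -0.09 became 0.0503 with 2 Cd3 and 2 Cd8 UMIs, 0.16 without gamma delta and NK gene UMIs, 0.0637 at 10 CPM or no minimum, 0.0127 with free RNA subtracted and 0.00754 with members thinned. The residency median stayed between -0.39 and -0.09.

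Single genes reversed too. Without Scrublet-marked cells the log2 ratio was 0.93 for Igfbp4, 1.00 for Mep1a, 0.26 for Ptprd, 2.31 for S100g and 0.70 for Trpv5. Without gamma delta and NK gene UMIs Mep1a came to 0.10. With free RNA subtracted Cltrn came to 1.65, Ctss to -0.80 and Miox to 0.15. Without deep members Hbegf came to -1.24, Igfbp4 to 1.04 and Krt19 to -0.44, and with members thinned Krt19 to -0.12 and Trpv5 to 1.17. Of the other values for single genes, 614 kept direction and call and 107 lost the call without reversing, among them Apoe, Cd74, Fcer1g and Kap, whose log2 ratio was 0 with free RNA subtracted.

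Against CD4 T cells 20 genes were higher and 35 lower without Scrublet-marked cells, and 23 higher without deep members. Against NK cells 45 were higher and 35 lower without deep members. The cause of these shifts was not tested. With 68 control cells, genes under about 50 CPM had too few UMIs to compare, and no value has a replicate check.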

Other observations

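Within CD8 T cells, subsets defined by 1 gene were set side by side in both libraries. Cells with Gzmb and no Gzmk (7 and 68 cells) had more Itga1 than cells with Gzmk and no Gzmb (18 and 142 cells), at 615 against 165 CPM in the control and 404 against 149 CPM in the haplodeficient library. After thinning, Itga1 was seen in 4 of 7 against 3 of 14 control cells and in 14 of 63 against 12 of 74 haplodeficient cells. Cells with Itga1 (28 and 207 cells) had less Il7r than cells without it (40 and 277), at 181 against 433 and 112 against 250.3 CPM, and less Ctla4, at 58.1 against 188 and 93.8 against 248 CPM. They also had more Fos (1149 against 144 and 1701 against 439 CPM) and more of the proximal tubule gene Slc34a1 (517 against 72.2 and 91.3 against 13.3 CPM), and Itga1 itself was seen in 17.3% and 14.5% of thinned thick limb cells. The part of tubule RNA in these differences was not tested. Il7r in thinned cells was seen in 2 of 14 against 15 of 53 control cells, and in 14 of 86 against 58 of 393 haplodeficient cells, where the shares were 16.3% and 14.8%.

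The antigen receptor was read only in part, since 3′-end counts seldom reach variable segments. A UMI of a beta variable gene was found in 8 of 68 control and 79 of 484 haplodeficient cells, and all 8 and 74 of the 79 had a single such gene. An alpha variable gene was found in 12 and 93 cells. The 1 gamma variable gene counted was found in 5 and 76 cells, and a delta variable gene in 0 and 7. The beta chain constant genes, which are near-identical so that reads can be split between them, were seen as Trbc1 only in 3 and 15 cells, Trbc2 only in 36 and 286, both in 26 and 161, and neither in 3 and 22.

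Haplodeficient cells with Pdcd1 (155) had more Tox than those without it (329), at 422 against 220.2 CPM, and in the control the 12 cells with Pdcd1 had 142 against 233 CPM in the other 56, on 10 and 52 Tox UMIs.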
